A study of Mus musculus and Homo sapiens
Mus musculus with 16 samples.

Results

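The genes described here are Sox4 and Sox11, members of the SoxC group of transcription factor genes, as anchors of chromatin interactions in mouse fetal forebrain. They are 2 of 20661 autosomal protein-coding genes, and they were taken by name, not by their values. An interaction was counted for a gene when either of its 10 kb bins overlapped the gene's body in the genome build mm10. In this way 331 of 58543 bin pairs listed in any library touched Sox4 or Sox11, 133 for Sox4 and 198 for Sox11. The data were H3K4me3 PLAC-seq libraries of forebrain tissue, 2 of the embryonic stage E16.5 and 2 of the earlier stage E12.5 (the numbers are days of gestation). PLAC-seq ligates DNA ends that lie close together in crosslinked nuclei, here cut with MboI, and enriches with an antibody those that carry a histone mark. H3K4me3 marks active and poised promoters. The labels name no genotype, treatment, sex or number of embryos for these libraries, and the other 12 samples of the series were not analysed here.

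SoxC proteins bind DNA through a high-mobility-group domain and activate transcription through a domain at the carboxyl end. In the developing nervous system Sox4 and Sox11 are expressed mainly in cells that leave the progenitor state and in young neurons, where they act largely redundantly in neuronal differentiation and survival. Both genes consist of a single coding exon, and both lie in regions with few other coding genes.

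Sox4 spans chr13:28948919-28953699, which is 4781 bases on the minus strand, and Sox11 spans chr12:27334268-27342718, which is 8451 bases on the minus strand. Each gene body covers 2 bins. The bin with the transcription start is called the promoter bin here and the other the 3' end bin. The Sox4 bins also hold the lncRNA genes Gm46405 and Gm46406, and the Sox11 promoter bin holds the lncRNA gene Gm30855, so interactions of these genes cannot be told apart from those of Sox4 and Sox11. Because both genes are on the minus strand, their upstream side has the higher coordinates and their downstream side the lower ones.

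The promoter sequences are shown because the assay selects for a promoter mark and the promoter bins carry most of the interactions. H3K4me3 at these promoters was not measured apart from the interactions, and the antibody can select either end of a pair. They are the 250 bases that end just before the transcription start, from RefSeq on GRCm38.p6, written 5' to 3' on the gene's strand (chr13:28953700-28953949 and chr12:27342719-27342968). Capitals mark the CCAAT box (CCAAT or its reverse complement ATTGG) and the GC box (GGGCGG or its reverse complement CCGCCC), searched on both strands.
Sox4 promoter: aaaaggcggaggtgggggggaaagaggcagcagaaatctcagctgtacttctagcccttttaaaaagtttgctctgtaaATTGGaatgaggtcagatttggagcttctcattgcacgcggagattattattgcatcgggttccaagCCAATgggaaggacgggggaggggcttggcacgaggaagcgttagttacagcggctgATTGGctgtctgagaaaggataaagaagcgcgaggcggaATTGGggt
Sox11 promoter: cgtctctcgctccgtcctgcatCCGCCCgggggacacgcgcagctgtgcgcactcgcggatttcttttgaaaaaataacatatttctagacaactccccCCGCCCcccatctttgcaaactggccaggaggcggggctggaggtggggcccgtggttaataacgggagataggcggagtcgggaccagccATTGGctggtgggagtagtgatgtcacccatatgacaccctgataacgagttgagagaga
The Sox4 window held 4 matches to the CCAAT box and 0 to the GC box, and the Sox11 window held 1 match to the CCAAT box and 2 to the GC box, with no overlap between matches. Among 32851 RefSeq promoter windows of the same length, 33.8% held a CCAAT match and 32.7% a GC box match. Neither window held the MboI site GATC, which 41.9% of the windows held. Neither held CAGATG, an E-box bound by neurogenic factors, nor the SOX core forms ACAAAG and ACAATG, on either strand. These 3 were present in 14.4%, 16.46% and 10.7% of the windows. GC content was 50.8% for Sox4 and 58% for Sox11.

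The libraries listed 35291 and 36794 interactions at E16.5, against 18413 and 16075 at E12.5, supported by 892987 and 911710 read pairs at E16.5 and by 446855 and 405491 at E12.5. How deeply the libraries were sequenced is unknown, and absence from a list means that a pair did not pass the authors' threshold, not that it had no contact. Forebrain marker genes were listed at both stages, with 326 and 292 interactions over 8 genes at E16.5 against 311 and 326 at E12.5. Mid- and hindbrain markers were listed as well, with 61 and 36 interactions over 8 genes at E16.5 against 130 and 80 at E12.5, and 5 of the 7 tested fell relative to the other genes: Gbx2, Hoxb2, Hoxb3, Hoxb4 and Pax2. Hoxb3, a hindbrain and spinal cord gene, had 21 and 7 interactions at E16.5 against 62 and 38 at E12.5. Among the forebrain markers, Emx2, Lhx2, Six3 and Dlx2 fell and Neurod6 rose, of 7 tested. Of all 3990 genes tested, 11.9% were called higher and 4.11% lower at E16.5. DESeq2 called Hoxb3, Hoxb4, Emx2, Lhx2 and Neurod6 of these markers, and 69 higher and 28 lower of all 3990 genes. Markers of meninges and mesenchyme had sums of 23 and 11 at E16.5 against 20 and 18 at E12.5, with none of 3 tested past the threshold (Foxd1, Msx1 and Foxc1 had the smallest p) and Twist1 at 0. Endothelium markers had 1 listed interaction in all, of Cldn5, with Pecam1, Kdr and Tek at 0. Microglia markers had 5 and 2 at E16.5 against 5 and 8 at E12.5, with Csf1r and Cx3cr1 at 0 and Cd68, the gene tested, not past the threshold. Hba-a1 and Hbb-bt, the erythroid markers on autosomes, were at 0. Whether these changes in marker interactions reflect a difference in tissue was not tested, nor was their part in the results on Sox4 and Sox11. In bulk tissue, a contact in more cells and a more frequent contact per cell cannot be told apart.

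Sox11 was among the genes with the most listed interactions at both stages, and Sox4 stood somewhat below it. Sox11 had 151 and 151 listed interactions at E16.5, against 82 and 95 at E12.5. These numbers ranked Sox11 2nd in each E16.5 library and 5th in each E12.5 library among the genes with a listed interaction, 4677 to 7981 per library. Sox4 had 94 and 83 at E16.5, against 54 and 57 at E12.5, which ranked it 8th and 17th at E16.5 and 24th and 21st at E12.5. The median gene with any interaction had 4 at E16.5 and 3 at E12.5. For both genes every E16.5 value lay above every E12.5 value.

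Read pairs followed the same order. The interactions of Sox11 held 4686 and 3948 read pairs at E16.5 and 2114 and 2246 at E12.5. Those of Sox4 held 2898 and 2152 at E16.5 and 1274 and 1397 at E12.5. The plot of numbers by library shows that as a share of the interactions in each library's list the order of the stages was the other way round. Sox11 took 0.428% and 0.410% of the list at E16.5 against 0.445% and 0.591% at E12.5, and Sox4 0.266% and 0.226% at E16.5 against 0.293% and 0.355% at E12.5. As a share of read pairs the stages overlapped, with 0.525% and 0.433% for Sox11 at E16.5 against 0.473% and 0.554% at E12.5, and 0.325% and 0.236% for Sox4 at E16.5 against 0.285% and 0.345% at E12.5.

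**Figure D1:**
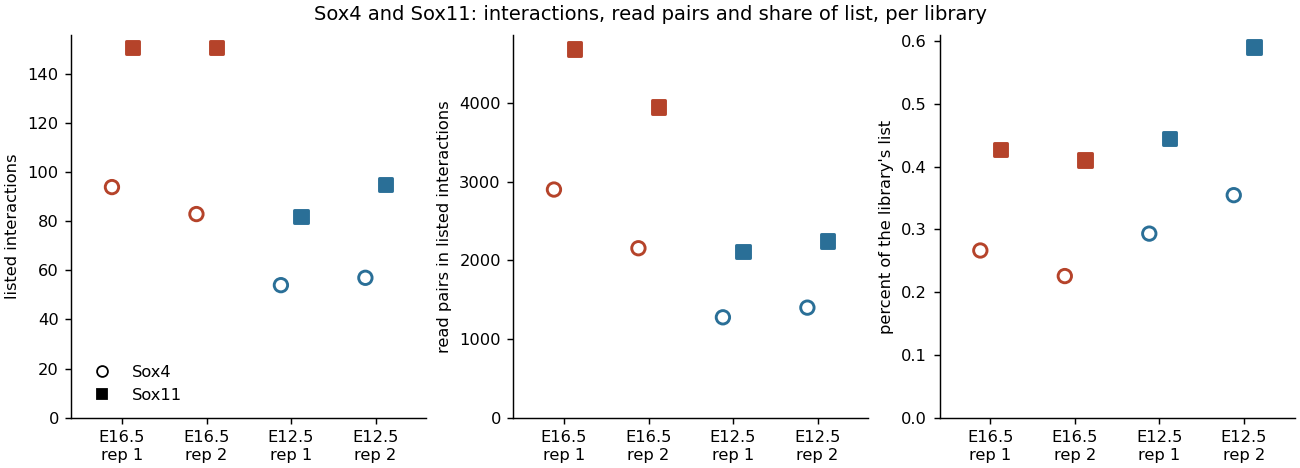
Listed interactions, their read pairs and their share of the library's list (percent) for Sox4 (open circles) and Sox11 (filled squares) in each library, E16.5 in red and E12.5 in blue. Numbers and read pairs lie higher in both E16.5 libraries, and shares lie lower in both.

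With each library scaled by its total over genes and TMM factors, neither gene passed the test of a change in number between the stages. Sox11 changed by -0.10 on the log2 scale (SE 0.14, adjusted p = 0.712, n = 2 per stage, edgeR quasi-likelihood test). Its sign turned under 6 of 17 alternatives. Sox4 changed by -0.19 (SE 0.17, adjusted p = 0.522, edgeR). Of the 3990 genes tested, 11.9% were called higher and 4.11% lower at E16.5. Without scaling, 64.7% of the genes tested had more listed interactions in each E16.5 library than in either E12.5 library, as both SoxC genes did. The median change over all genes tested was 0.24 with TMM and 0.12 without it. In these fits the changes of Sox11 and Sox4 lay below the median gene. With lists of equal length Sox11 lay above it and Sox4 below, at 0.16 and -0.03 beside a median of 0.07. The labels do not say whether the 2 libraries of a stage came from different embryos, so the p-values measure the spread between these libraries, which may be technical.

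Interactions of the 2 genes recurred between libraries. For Sox11, 121 bin pairs were listed in both E16.5 libraries, which is 80.1% of each library's pairs, and 61 in both E12.5 libraries, which is 74.4% and 64.2%. For Sox4 the shared pairs numbered 59 at E16.5, or 62.8% and 71.1% of each library's, and 35 at E12.5, or 64.8% and 61.4%. Over all bin pairs these shares were 58.9% and 56.5% at E16.5 and 51.4% and 58.9% at E12.5.

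The promoter bin carried more of the interactions than the 3' end bin in every library. For Sox11 the promoter bin had 92 and 92 interactions at E16.5 and 45 and 57 at E12.5, and the 3' end bin had 59 and 59 at E16.5 and 37 and 38 at E12.5. The Sox11 promoter bin ranked 1st of all listed bins in both E16.5 libraries, and 9th and 4th in the E12.5 libraries. For Sox4 the promoter bin had 72 and 59 at E16.5 and 35 and 45 at E12.5, against 22 and 24 for the 3' end bin at E16.5 and 19 and 12 at E12.5. The Sox4 promoter bin ranked 2nd and 20th at E16.5, and 21st and 13th at E12.5. Neighbouring bins share partners, so these interactions are not independent: 71 of 127 partner bins of Sox11 and 39 of 94 partner bins of Sox4 were listed with both bins of the gene.

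The partner bins of the genes differed in what they contain. Those of Sox11 lay almost all outside coding genes: 4 of 127 overlapped one, and 41 overlapped any annotated gene. Cmpk2, a mitochondrial nucleotide kinase gene, was the coding gene found in both libraries of a stage, with 4 and 3 interactions at E16.5 and 2 and 3 at E12.5. Rnf144a, a ubiquitin ligase gene, and Rsad2, an antiviral gene, were partners in 1 library each. By contrast, 51 of 94 partner bins of Sox4 overlapped a coding gene, and in each case it was Cdkal1, a tRNA-modifying enzyme gene whose body fills much of the upstream side. Interactions of Sox4 with the Cdkal1 body numbered 52 and 38 at E16.5 and 20 and 24 at E12.5, while all interactions that touched Cdkal1 numbered 66 and 44 at E16.5 and 24 and 24 at E12.5. On the downstream side, 32 partner bins lay in the lncRNA gene 2610307P16Rik, with 29 and 32 interactions at E16.5 and 25 and 27 at E12.5. Over all bins listed in any library, at either end of an interaction, 60.9% overlapped a coding gene. That share includes the promoter bins of genes, so it is not a share of partner bins alone.

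Other coding genes within 1 Mb had few interactions. Prl4a1 and Prl5a1, prolactin family genes near Sox4, had 0 in every library, and E2f3, a cell cycle transcription factor gene, had 1 and 2 at E16.5 against 0 and 0 at E12.5. Cdkal1 as a whole did not pass the test of number (log2 change 0.33, adjusted p = 0.455, edgeR), nor did Cmpk2 (log2 change -0.37, adjusted p = 0.824, edgeR).

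Distances of the SoxC interactions were long at both stages. The median distance for Sox11 was 620 and 620 kb at E16.5, against 525 and 520 kb at E12.5. For Sox4 it was 505 and 470 kb at E16.5, against 435 and 440 kb at E12.5. Over all interactions it was 300 and 290 kb at E16.5 and 260 and 260 kb at E12.5. In each of these comparisons the stages did not overlap, and the difference of the stage means was 97.5 kb for Sox11, 50 kb for Sox4 and 35 kb for all interactions. The exact permutation test over the 6 assignments of libraries gave p = 0.333 (two-sided) for each, which is the smallest p this design allows.

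Interactions over 500 kb made up 66.2% and 67.5% of those of Sox11 at E16.5, against 54.9% and 51.6% at E12.5. For Sox4 they made up 50% and 45.8% at E16.5, against 42.6% and 43.9% at E12.5. The same share over whole lists was 25.4% and 23.0% at E16.5 and 19.8% and 19.0% at E12.5. At distances of 700 kb or more, Sox11 had 52 and 54 interactions at E16.5 against 24 and 25 at E12.5, and Sox4 had 19 and 15 at E16.5 against 7 and 10 at E12.5. The farthest contact of Sox11 found in both E16.5 libraries lay 1000 kb upstream, at the limit of the lists, and the farthest in both E12.5 libraries lay 880 kb downstream, in the bin with Cmpk2. For Sox4 the farthest contact shared within either stage was the same, 900 kb upstream in Cdkal1.

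At the short end, Sox11 had 1 and 2 interactions of at most 200 kb at E16.5, against 5 and 7 at E12.5. In a fit of these short interactions alone, Sox11 fell by 2.42 on the log2 scale (adjusted p = 0.0321, edgeR), where 1.76% of 1871 genes tested were called lower. With lists of equal length these interactions numbered 1 and 2 at E16.5 and 4 and 7 at E12.5, and at an FDR under 0.0001 they numbered 1 and 2 at E16.5 and 2 and 3 at E12.5, where the stages meet at 2. Sox4 had 7 and 12 at E16.5 against 9 and 10 at E12.5, and did not pass this test.

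Sox11 had more upstream interactions at E16.5 than at E12.5. Upstream interactions of Sox11 numbered 49 and 53 at E16.5, against 11 and 16 at E12.5. Its downstream interactions numbered 102 and 98 at E16.5, against 71 and 79 at E12.5. The upstream share was thus 32.5% and 35.1% at E16.5 and 13.4% and 16.8% at E12.5. Most of the difference lay beyond 500 kb, where the upstream side had 34 and 38 interactions at E16.5 and 2 and 6 at E12.5. In the plot of Sox11 contacts, the E16.5 libraries have a broad band of upstream contacts beyond 400 kb that is sparse in the E12.5 libraries.

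**Figure D2:**
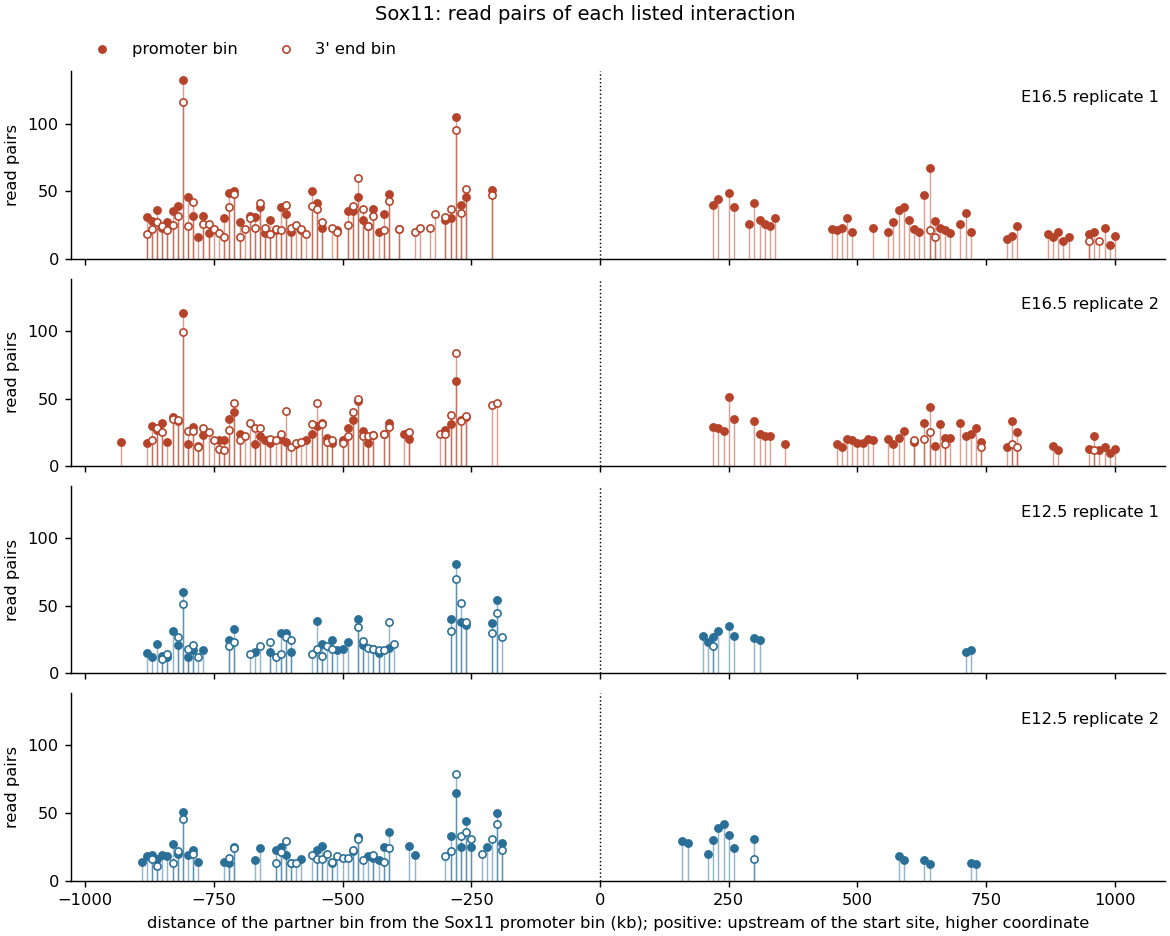
Read pairs (vertical axis) of each listed Sox11 interaction against the distance of the partner bin from the promoter bin in kb, upstream to the right, in the E16.5 libraries (red) and the E12.5 libraries (blue). Filled circles are interactions of the promoter bin and open circles those of the 3' end bin. The E16.5 libraries have 49 and 53 upstream interactions, against 11 and 16 in the E12.5 libraries.

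Sides of genes were tested after the numbers above had been seen. With each side of a gene as its own feature, the upstream side of Sox11 rose 2.15-fold (log2 change 1.11, SE 0.24, adjusted p = 0.00999, edgeR), where 9.73% of 3866 sides tested were called higher and 3.16% lower. Its downstream side did not pass the test (log2 change -0.39, SE 0.14, adjusted p = 0.0782, edgeR). The ratio of upstream to downstream interactions of Sox11 was 2.74-fold higher at E16.5 (log2 1.45, SE 0.33, adjusted p = 0.000985, edgeR with the library as a block), and 9.43% of the 318 genes with enough interactions on both sides were called in either direction. This ratio stayed above 0 on the log2 scale without each library in turn, at 1.32 to 1.69, but passed the threshold only without E12.5 replicate 2 (adjusted p = 0.0237). Each of these fits, including the one that passed, tested fewer genes (161 to 262) than the main fit (318). With all lists cut to the length of the shortest, upstream interactions numbered 17 and 21 at E16.5 against 8 and 16 at E12.5, and the log2 ratio was 0.69 (adjusted p = 0.417, edgeR).

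Sox4 had 52 and 38 upstream interactions at E16.5 against 21 and 24 at E12.5, and 42 and 45 downstream interactions at E16.5 against 33 and 33 at E12.5. The upstream side changed by 0.19 on the log2 scale (adjusted p = 0.696, edgeR), the downstream side by -0.41 (adjusted p = 0.274, edgeR), and their ratio by 0.55 (SE 0.35, adjusted p = 0.371, edgeR). None of these passed the threshold. With lists of equal length the log2 ratio of Sox4 was 0.88 (adjusted p = 0.266, edgeR), larger than the 0.69 of Sox11 under that setting, so which gene had the larger value depended on the list length. Whether the change in balance differs between Sox11 and Sox4 was not tested.

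**Figure D3:**
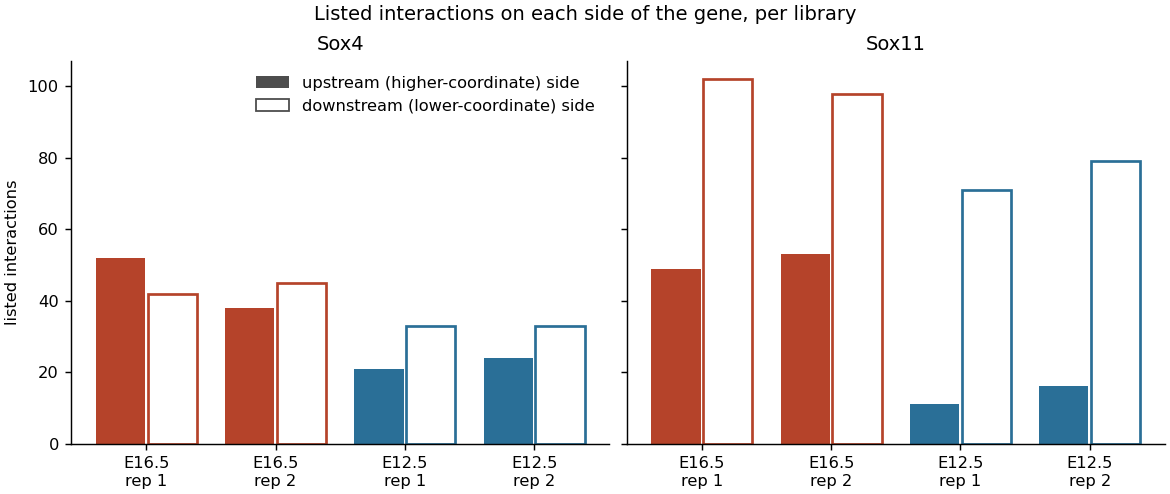
Listed interactions upstream (filled bars) and downstream (open bars) of Sox4 and Sox11 in each library, E16.5 in red and E12.5 in blue. Upstream bars of Sox11 reach 49 and 53 at E16.5, against 11 and 16 at E12.5.

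The Sox11 contact with the most read pairs on average joined the gene to a bin about 0.8 Mb downstream that holds no annotated gene, at chr12:26530001-26540000. With the promoter bin it had 132 and 113 read pairs at E16.5, against 60 and 51 at E12.5. With the 3' end bin it had 116 and 99 at E16.5, against 51 and 46 at E12.5. The read pairs with the promoter bin were 20.8 and 24.7 times the authors' expected count at E16.5 and 10.6 and 10.2 times at E12.5. In the E16.5 libraries the largest observed-to-expected ratio of Sox11, that of this partner bin, ranked 22nd and 14th of all listed interactions, and in the E12.5 libraries 99th and 143rd.

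After scaling by library, the contact of the promoter bin with this partner was 1.71-fold stronger at E16.5 (log2 change 0.78, SE 0.21, adjusted p = 0.0108, edgeR), and that of the 3' end bin 1.72-fold (SE 0.22 on the log2 scale, adjusted p = 0.0135). The remaining contact past the threshold joined the 3' end bin to chr12:26790001-26800000, 540 kb downstream, with 37 and 47 read pairs at E16.5 against 18 and 16 at E12.5 (log2 change 0.94, SE 0.28, adjusted p = 0.0237, edgeR). For all of these the unscaled read pairs of the stages did not overlap, but the E16.5 lists also held more read pairs in total. How many of all contacts likewise do not overlap is not given. Among contacts listed in all 4 libraries, 53 belonged to Sox11, of which 3 were higher and 0 lower at E16.5, 9 had an unadjusted p under 0.05, and the median log2 change was 0.17. DESeq2 called 0 of the 53, with 3 at an unadjusted p under 0.05. The 3 calls became 1 without E12.5 replicate 1, 0 without E12.5 replicate 2 (10 with an unadjusted p under 0.05), 0 with totals within distance classes as an offset (5) and 1 with the authors' expected count as an offset. Over all 6875 such contacts, 5.88% were called higher and 4.58% lower, with a median of -0.01. Of these 6875, 1583 had an unadjusted p under 0.05 in the main edgeR fit. DESeq2 called 98 of them, with 598 at an unadjusted p under 0.05. With totals within distance classes as an offset the median of the Sox11 contacts was 0.0085, beside -0.05 over all contacts, and with the authors' expected count as an offset it was -0.02, below the 0.12 over all contacts.

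Strong contacts of Sox11 nearer to the gene did not pass the test. The bin at chr12:27060001-27070000 in the lncRNA gene Gm30515, 280 kb downstream, had 105 and 63 read pairs with the promoter bin at E16.5, against 81 and 65 at E12.5. The 3' end bin had 95 and 84 with it at E16.5, against 70 and 79 at E12.5. The stages overlapped for the promoter bin and not for the 3' end bin, with log2 changes after scaling of -0.16 (adjusted p = 0.716) and -0.10 (adjusted p = 0.828, edgeR). The bin at chr12:26870001-26880000, in the lncRNA gene Gm30290, had 60 and 50 read pairs with the 3' end bin at E16.5, against 34 and 31 at E12.5, and did not pass the test (log2 change 0.39, adjusted p = 0.345, edgeR). By distance, the median log2 change of the Sox11 contacts was -0.10 over 14 contacts up to 300 kb, 0.17 over 16 at 310 to 600 kb and 0.35 over 23 beyond. Over all contacts the medians in these classes also rose with distance, at -0.06, 0.03 and 0.13. With totals within distance classes as an offset the Sox11 medians were -0.17, 0.07 and 0.10, and with the authors' expected count -0.13, -0.10 and 0.07, beside 0.08, 0.15 and 0.23 over all contacts. Upstream, 6 contacts were listed in all 4 libraries, with a median of 0.07 and none past the threshold.

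For Sox4 the contact with the most read pairs on average also lay downstream, in a bin of the lncRNA gene Gm40841 at chr13:28410001-28420000. With the promoter bin it had 117 and 89 read pairs at E16.5, against 41 and 54 at E12.5, which is 1.68-fold stronger after scaling (log2 change 0.75, SE 0.23, adjusted p = 0.0240, edgeR). With the 3' end bin it had 76 and 52 at E16.5, against 22 and 17 at E12.5, which is 2.54-fold stronger (log2 change 1.34, SE 0.27, adjusted p = 0.000542, edgeR). The next bin, chr13:28420001-28430000, had 76 and 51 read pairs with the promoter bin at E16.5, against 30 and 25 at E12.5 (log2 change 0.84, adjusted p = 0.0251, edgeR). The fourth contact past the threshold lay 870 kb upstream in Cdkal1, at chr13:29820001-29830000, with 42 and 46 read pairs at E16.5 against 17 and 20 at E12.5 (log2 change 0.88, SE 0.28, adjusted p = 0.0315, edgeR). Of the 24 Sox4 contacts listed in all 4 libraries, these 4 were higher and 0 lower, 6 had an unadjusted p under 0.05, and the median log2 change was 0.20. The shares over all 6875 such contacts were 5.88% higher and 4.58% lower, with a median of -0.01, and 1583 had an unadjusted p under 0.05. DESeq2 called 1 of the 24 higher and 0 lower, with 3 at an unadjusted p under 0.05. Of all 6875 contacts it called 98, with 598 at an unadjusted p under 0.05. The 4 calls became 2 without E16.5 replicate 1, 1 without either E12.5 library, 1 with distance-class offsets and 0 with the authors' expected count as an offset (4 with an unadjusted p under 0.05).

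Other contacts of Sox4 with many read pairs did not pass the test. The contact of the promoter bin with chr13:29600001-29610000 in Cdkal1, 650 kb upstream, had 77 and 59 read pairs at E16.5 against 56 and 52 at E12.5 (log2 change -0.03, adjusted p = 0.952, edgeR). Within 2610307P16Rik, the contacts 160, 170 and 230 kb downstream had 35 to 73 read pairs at E16.5 and 39 to 59 at E12.5, with log2 changes of -0.13, -0.31 and -0.18, none past the threshold. Median log2 changes of Sox4 contacts were -0.13 over 5 contacts up to 300 kb, 0.58 over 6 at 310 to 600 kb and 0.22 over 13 beyond. With totals within distance classes as an offset they were -0.10, 0.44 and 0.05, and with the authors' expected count -0.09, 0.31 and 0.31. The medians over all contacts were -0.06, 0.03 and 0.13 in the main fit. They were -0.03, -0.07 and -0.10 with distance-class offsets, and 0.08, 0.15 and 0.23 with the expected count.

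**Figure D4:**
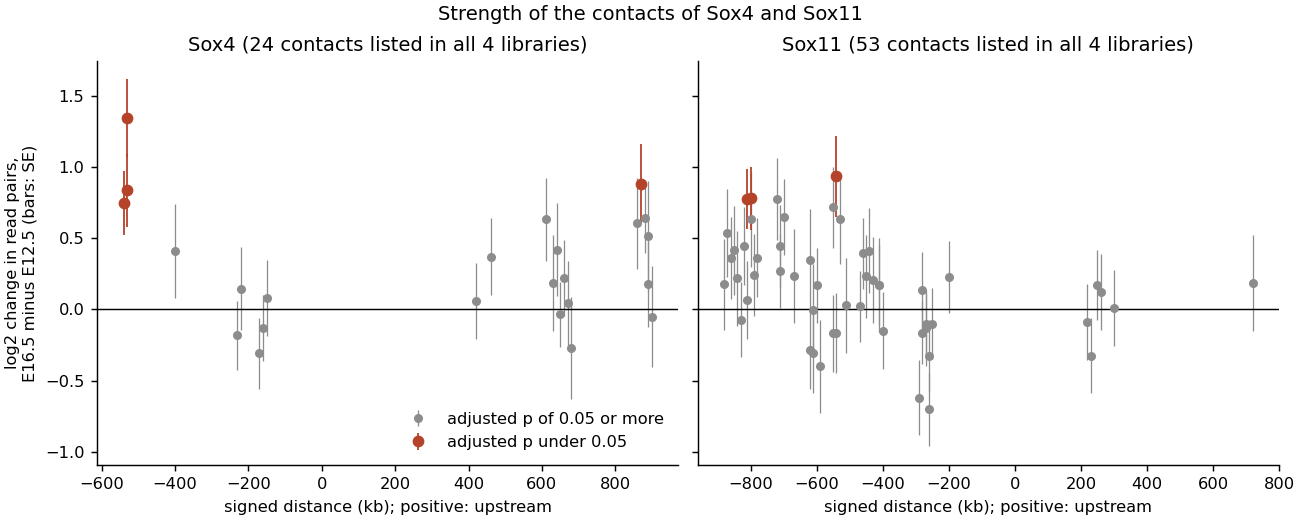
Log2 change in read pairs, E16.5 minus E12.5, with its SE, for each contact of Sox4 and Sox11 listed in all 4 libraries, against its distance in kb with upstream positive. Red points passed the edgeR test at an adjusted p under 0.05: 4 of 24 for Sox4 and 3 of 53 for Sox11, all higher at E16.5 and all more than 500 kb away.

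Some bin pairs were listed at a single stage. A pair is 1 bin of the gene with 1 partner bin, so the gene's other bin can be listed with that partner at the other stage. For Sox11, 39 of 198 bin pairs (19.7%) were listed in both E16.5 libraries and in neither E12.5 library, and 3 (1.52%) the other way round, while 53 (26.8%) were listed in all 4. For Sox4 the shares were 19 of 133 (14.3%), 1 (0.752%) and 24 (18.0%). Over all bin pairs, 15.2% were listed at E16.5 alone, 1.83% at E12.5 alone and 11.7% in all 4 libraries, and the E16.5 lists are the longer ones. Of the 39 Sox11 pairs listed at E16.5 alone, 26 lay upstream and 13 downstream, whereas of the 53 in all 4 libraries 6 lay upstream and 47 downstream. For Sox4 the 19 pairs split into 10 upstream and 9 downstream. With all lists cut to the length of the shortest, 10 pairs of Sox11 were listed at E16.5 alone and 9 at E12.5 alone, and for Sox4 6 and 6. With neighbouring pairs taken as the same, these numbers were 22 and 0 for Sox11, and 7 and 0 for Sox4. Shares over all bin pairs under these settings are not given, so whether the 2 genes differ from all pairs there is unknown.

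Among pairs listed at E16.5 alone, the Sox11 promoter bin had 50 and 24 read pairs with chr12:26780001-26790000, next to the strengthened contact 540 kb downstream. The 3' end bin was listed with this same partner in all 4 libraries, with 39 and 31 at E16.5 against 14 and 19 at E12.5. Upstream, the promoter bin had 26 and 32 with chr12:28040001-28050000 in the lncRNA gene Gm46326, at 700 kb, and 23 and 31 with chr12:28000001-28010000 in the lncRNA gene Gm31025, at 660 kb. It also had 29 and 27 read pairs with a bin in Gm30515 at 300 kb, and the 3' end bin had 26 and 28 with a bin in the lncRNA gene 1700020D12Rik at 760 kb, both downstream. The other bin of the gene was listed with these downstream partners at E12.5 as well, with 18 read pairs in replicate 2 and 17 in replicate 1. At E12.5 alone, the promoter bin had 54 and 50 read pairs with chr12:27140001-27150000 in the lncRNA gene Gm9866, 200 kb downstream. The 3' end bin had 27 and 23 with the bin after it, and the promoter bin had 23 and 20 with chr12:27550001-27560000, 210 kb upstream. All 3 of these pairs lay within 210 kb of the gene bin. The bin at chr12:27140001-27150000 was also listed with the 3' end bin in E16.5 replicate 2, with 47 read pairs.

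For Sox4, the pairs of the promoter bin at E16.5 alone with the most read pairs included bins in Cdkal1 at 320 kb (46 and 28 read pairs), 450 kb (36 and 23) and 480 kb (30 and 24) upstream. Bins in 2610307P16Rik followed, at 360 kb from the promoter bin (33 and 30) and 340 kb from the 3' end bin (29 and 24). The gene's other bin was listed with these partners in E12.5 replicate 2, with 13 and 24 read pairs. The single pair at E12.5 alone joined the promoter bin to 2610307P16Rik at 190 kb, with 33 and 33 read pairs. Its partner bin was listed with the 3' end bin in E16.5 replicate 2, with 19 read pairs. Counts of the single-stage pairs themselves at the other stage are below the authors' threshold and are not in the lists, so no fold is given.

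**Figure D5:**
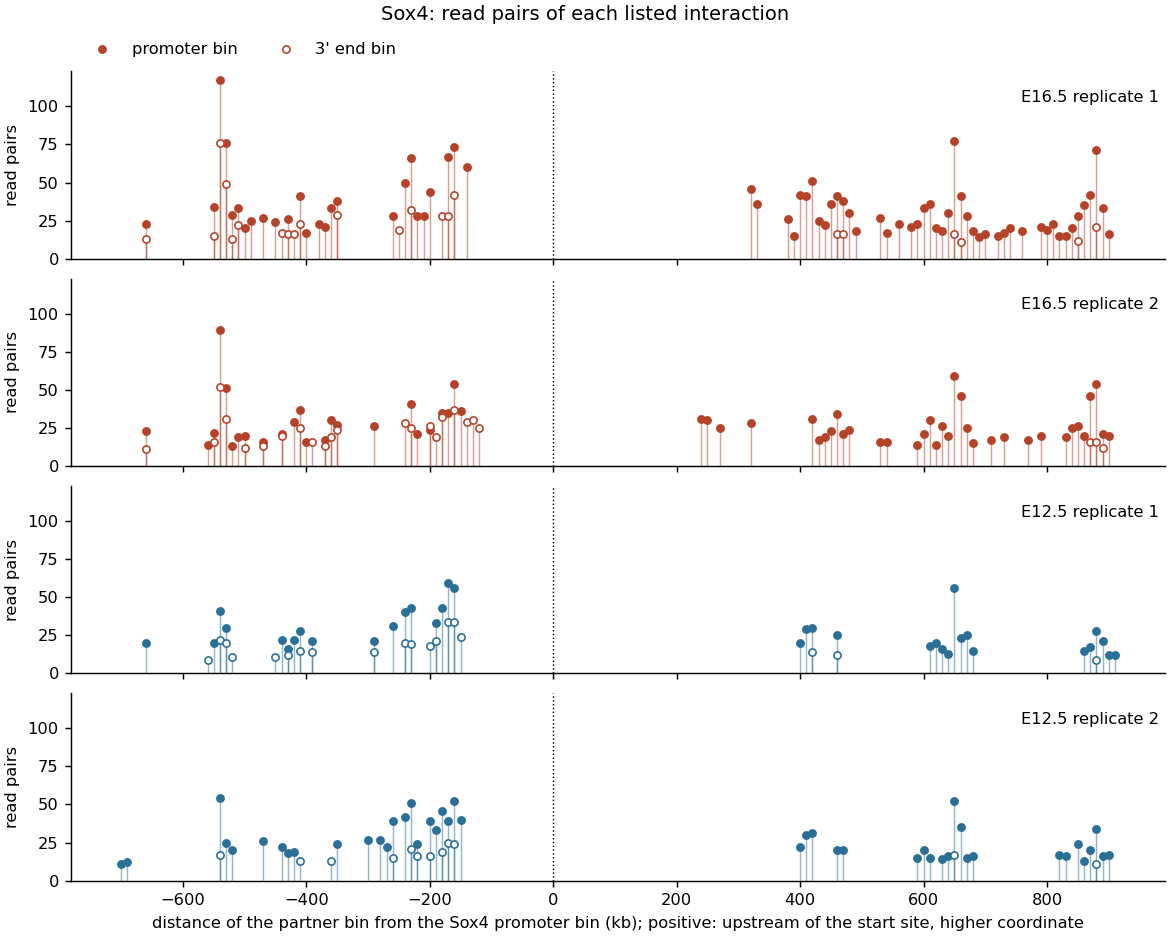
Read pairs of each listed Sox4 interaction against the distance of the partner bin from the promoter bin in kb, upstream to the right, in the E16.5 libraries (red) and the E12.5 libraries (blue). Filled circles are interactions of the promoter bin and open circles those of the 3' end bin. The contact 540 kb downstream has 117 and 89 read pairs at E16.5, against 41 and 54 at E12.5.

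Other Sox genes ranged from no listed interaction to numbers near those of Sox4 at E16.5 and above them at E12.5. Sox6 had 93 and 90 at E16.5 and 79 and 78 at E12.5, where Sox4 had 94 and 83, and 54 and 57. These numbers are over the whole gene body and are not scaled by gene size, which is 2 bins for Sox4. Sox12, the remaining SoxC gene, had 0 and 1 at E16.5 and 1 and 1 at E12.5. Of 16 other autosomal Sox genes, 5 were at 0 in all libraries and 8 could be tested. Of these 8, 1 was higher and 5 lower, with a median log2 change of -0.76. The same values over all 3990 genes tested were 11.9% higher, 4.11% lower and a median of 0.24. Sox2, a SoxB gene that maintains neural progenitors, had 63 and 49 at E16.5 against 59 and 61 at E12.5, a fall after scaling of log2 -0.96 (adjusted p = 0.00209, edgeR). Sox1 and Sox21 of the same group, Sox6 of the SoxD group and Sox9 of the SoxE group fell as well, by -0.79, -1.13, -0.64 and -0.84. Sox5, a SoxD gene active in early-born cortical projection neurons, rose, with 34 and 28 at E16.5 against 1 and 1 at E12.5 (adjusted p = 0.000110, edgeR). DESeq2 gave every one of these 6 genes the same direction and called Sox5 higher and 0 of them lower, with 3 of the 8 at an unadjusted p under 0.05. Of all 3990 genes it called 69 higher and 28 lower, with 582 at an unadjusted p under 0.05.

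Regulators that act with or upstream of SoxC genes in neurogenesis were read next, with 6 of 8 tested, 1 higher, 3 lower and a median of -1.06, beside 11.9% higher, 4.11% lower and a median of 0.24 over all 3990 genes tested. Pou3f2 and Pou3f3, POU-domain transcription factor genes, were among those that fell, by -1.16 and -0.94 on the log2 scale. Tcf4, an E-protein gene, rose, with 73 and 59 at E16.5 against 16 and 21 at E12.5 (log2 change 0.97, adjusted p = 0.0138, edgeR). Of 12 neuronal genes described as acting downstream of or with SoxC, 8 were tested, 3 rose, 0 fell, and the median was 0.12, also with genes at 0 in a stage set to their bound. Tbr1, a regulator of deep-layer neurons, had 43 and 36 at E16.5 against 5 and 5 at E12.5 (adjusted p = 0.000676, edgeR). Neurod6 had 34 and 21 at E16.5 and Neurod1 9 and 15, against 0 and 0 at E12.5 for both. Fezf2, Bcl11b, Eomes, Prox1 and Stmn1 did not pass the test, and Tubb3 had 0 in every library. DESeq2 called 0 of the regulators (4 with an unadjusted p under 0.05) and, of the neuronal genes, Tbr1 and Neurod6. Its calls over all 3990 genes were 69 higher and 28 lower, with 582 at an unadjusted p under 0.05.

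The genes whose numbers were most like those of Sox4 over the 4 libraries, by Euclidean distance in log2 normalised number (log2 CPM), were Mycn (0.301), Enc1 (0.341) and Auts2 (0.394). Mycn, a transcription factor gene, had 80 and 89 at E16.5 against 61 and 58 at E12.5. For Sox11 they were Mn1 (0.726), Gse1 (0.790) and Zmiz1 (0.980). Mn1, a transcriptional co-regulator gene, had 184 and 155 interactions at E16.5 against 126 and 115 at E12.5. The distances were thus larger for Sox11 than for Sox4. Numbers are over the whole gene body, and the genes differ in size. Auts2 covers 112 bins, Gse1 37, Zmiz1 22 and Mn1 5, against 2 for Mycn, Enc1, Sox4 and Sox11.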

How the data were processed

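H3K4me3 PLAC-seq interactions were analysed in 4 fetal forebrain libraries. The submitters' processing notes name BWA, SAMtools and build mm10. Their versions, the caller of interactions and the basis of its expected count are not given in these sources. For E12.5 replicate 1 the extraction field of the labels describes adult cortex, while its title and characteristics say fetal forebrain, which was followed.

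Per the file headers, the authors deposited, for each interaction called in each library, an observed count (read pairs), an expected count (a signal), an FDR (q-value) and the −log10 p of its cluster, which was not used beyond the check of its range. Listed interactions join 10 kb bins on 19 autosomes, 20 to 1000 kb apart, with an FDR under 0.01 and at least 2 times the expected count. No replicates were pooled. Counts were used as deposited, and the depth of each library is unknown.

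Genes and promoters came from RefSeq tables of GRCm38.p6, whose primary sequence is that of mm10, and both genes matched a promoter entry. Genes that cover identical bins were treated as 1 feature. Number was tested on listed interactions per gene with a sum of at least 10, strength on read pairs of bin pairs listed in all 4 libraries. The quasi-likelihood test of edgeR 4.0.16 (R 4.3.3) was run on both, with TMM, robust dispersion and Benjamini-Hochberg adjustment over all features at 0.05. A change is E16.5 over E12.5 on the log2 scale, and its SE is the log2 change over the root of the F that matches the p. Sides were tested likewise, and their balance as a side-by-stage term with the library as a block. On simulated data the fit of number recovered 60.8% of 4-fold and 9.3% of 2-fold changes, and that of strength 95% and 53%. The fit of the balance of sides recovered 10.7% of 4-fold changes. False calls numbered 5, 10 and 1. A result that did not pass the threshold may thus hide a real change. These shares are over features of all counts, and recovery at counts like those of Sox4 and Sox11 was not tested.

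Sox4, Sox11, the gene lists and the tests were chosen with earlier results of these data known. Named contacts were the 5 with the highest mean count among those in all 4 libraries and at each stage alone, every contact past the threshold and the farthest ones. Named list genes were those past the threshold, up to 6, and the 3 with the smallest p; 1 gene picked by this rule is not reported here. Genes alike were the 3 nearest in log2 CPM of number (prior count 2). Alternatives were DESeq2 1.42.0, no TMM, offsets, other filters, lists cut to equal length, FDR under 0.0001, a replicate block and each library left out.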

Additional observations from a re-analysis of the deposited data

How the results depend on the processing

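Sox4 kept its sign (below 0, not past the threshold) in number of interactions under all 17 alternatives. For Sox11 the log2 change of -0.10 turned to 0.036 without E12.5 replicate 2, 0.16 with lists of equal length, 0.035 at an FDR under 0.0001, 0.0058 without the filter, 0.045 with read pairs and 0.013 with promoter bins, never past the threshold, and without each library in turn it ran between -0.29 and 0.036. It passed the threshold, at -2.42, with distances of at most 200 kb. The cause of these moves was not tested. Genes called in number were 639 and became 97 with DESeq2, 263 with lists of equal length, 258 at an FDR under 0.0001, 160 at up to 200 kb, 398 with gene-end bins, 100 with promoter bins, 268 to 506 without a library in turn, and 0 with edgeR on read pairs (1554 with an unadjusted p under 0.05) or clusters counted once (184). Contacts called in strength were 719 and became 98 with DESeq2, 479 with lists of equal length, 468 at an FDR under 0.0001, 265 at up to 200 kb, 274 to 537 without a library in turn, and 18 with the authors' expected count as an offset, all higher (100% against 56.2%). The 4 Sox4 contacts became 1 with DESeq2, with lists of equal length and with distance-class offsets, 0 at up to 200 kb (3 tested, 0 with an unadjusted p under 0.05, edgeR) and with the expected offset (4 with an unadjusted p under 0.05), and 1 to 3 without a library. The 3 Sox11 contacts became 0 with DESeq2 (3), at up to 200 kb (0 of 1) and with distance-class offsets (5), where the number in parentheses has an unadjusted p under 0.05, 1 with the expected offset and 0 to 4 without a library. The balance of the sides of Sox11 was 1.45 on the log2 scale and lost its call with lists of equal length (0.69) and at an FDR under 0.0001 (1.44), and was 1.32 to 1.69 without a library in turn. Distances kept their direction under every alternative run. Pairs listed at E16.5 alone became 6, 12 and 7 for Sox4 (19) with lists of equal length, an FDR under 0.0001 and neighbouring pairs taken as the same, and those at E12.5 alone (1) became 6, 5 and 0. For Sox11, pairs at E16.5 alone (39) became 10 with lists of equal length and 22 with neighbouring pairs, and those at E12.5 alone (3) became 9 and 0. The same shares over all bin pairs under these settings are not given. Same-numbered libraries deviated together weakly (r 0.09 for number, 0.13 for strength over features), and 2 pairs are too few to show pairing. With the replicate number as a block, 588 genes and 939 contacts were called, with 5 contacts of Sox4 and 5 of Sox11 (4 higher, 1 lower).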

Other observations

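Partner bins were defined by an interaction with Sox4 or Sox11, and the median bin listed in a library had 1 interaction, so a high share with the gene is a property of how they were chosen. Of the interactions that touched any partner bin of Sox11, those with Sox11 itself were 151 of 180 and 151 of 176 at E16.5, and 82 of 84 and 95 of 99 at E12.5. For Sox4 they were 94 of 122 and 83 of 109 at E16.5, and 54 of 66 and 57 of 57 at E12.5. The bin of the Sox11 contact with the most read pairs, chr12:26530001-26540000, had 20 and 17 listed interactions at E16.5 and 3 and 2 at E12.5, 2 of them with Sox11 in each library. The strongest Sox4 partner bin, in Gm40841, had 10 and 10 at E16.5 and 8 and 2 at E12.5, 2 of them with Sox4 in each library. These bins were singled out after their values were seen, and the comparison was not tested.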
